A study of Homo sapiens with 5 samples.

Results

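The growth plate regulators PTH1R, RUNX3, IGFBP3 and TGFBR2 and the long non-coding RNA H19 were followed in TC28a2 chondrocytes. They were taken by gene symbol, and all 5 were found among the 2694 genes of the deposited files, with a value in each of the 5 libraries. TC28a2 is an established line of immortalized human costal chondrocytes. Total RNA was sequenced on day 5 from cells kept in growth medium (GM, 2 libraries), which contained 10% fetal bovine serum, or in hypertrophic medium (HM, 3 libraries), which was renewed every 2 days. HM held 1% serum and 1% insulin transferrin selenium-A. The growth factors added were BMP-2 at 100 ng/ml and GDF-5 at 10 ng/ml, and the hormones were triiodothyronine (T3) at 1 µM and dexamethasone at 10 nM. Ascorbic acid at 50 µg/ml and β-glycerophosphate at 10 mM were also present, so the media differed in serum and in all of these agents together. The study describes the replicates of its experiments in general as biological, but the labels do not say whether libraries of one medium came from separate cultures. The p-values below measure the spread between these libraries, which may be partly technical.

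In the growth plate, chondrocytes divide in columns, stop dividing, enlarge (hypertrophy) and give way to bone. The pace of this sequence is held by a loop in which Indian hedgehog (IHH), made by cells entering hypertrophy, raises parathyroid hormone related protein (PTHLH), and PTHLH acts through its receptor PTH1R to delay hypertrophy. RUNX factors drive the hypertrophic programme, insulin-like growth factors (IGFs) promote growth of the cells, and transforming growth factor β (TGF-β) signaling through TGFBR2 restrains terminal differentiation.

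Every value is, by the study's methods, a log2-transformed and RLE-normalized value made by the authors, although the submitters' processing notes name other tools. RLE (relative log expression) divides a library by the median of its gene-wise ratios to an average library. The exact transformation is not stated, and a difference of 1 is therefore not read as a doubling of transcript number. Whether values were corrected for gene length is not settled, so levels are compared between media within a gene and not between genes. The number of reads behind a value is unknown. The listed genes ran from 2.20 to 20.86, and none differed between the media by less than 0.21. In number and direction they match the genes that the study called different between the media, so the list was selected for a difference on these same libraries. The fold threshold stated for that selection is larger than most of the differences found here, and how the deposited scale relates to those folds was not settled. The p-values below therefore set a difference beside the replicate spread and are not independent evidence that a gene differed. The differences were set against the replicate spread with limma, a linear model that moderates each gene's spread across all genes, and p-values were adjusted by Benjamini-Hochberg over all 2694. Of these, 1683 (62.5%) were higher and 984 (36.5%) lower in HM with an adjusted p under 0.05, which is the background for each count below. After each library was centred on its median, these numbers were 845 and 987, because centring lowered each HM minus GM difference by 0.35. HM replicate 1 lay farther from HM replicates 2 and 3 (Euclidean distances of 16.69 and 19.55 over the listed genes) than these lay from each other (14.61), and results are also given without it.

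All 5 genes had higher values in HM than in GM. The increases were 2.09 for IGFBP3, 1.52 for H19, 1.06 for PTH1R, 0.87 for RUNX3 and 0.75 for TGFBR2 on the log2 scale, each with an adjusted p under 0.05 (limma), where 62.5% of the listed genes reached the same call. In each of the 5 genes the 3 HM libraries lay above both GM libraries, as they did in 1685 listed genes (62.5%). An increase above 1 was reached by IGFBP3, H19 and PTH1R, against 11.8% of the listed genes, and one above 2 by IGFBP3 alone, against 1.04%. After median centring PTH1R was below 1, at 0.71, and IGFBP3 below 2, at 1.74. The 5 genes were chosen with earlier results of these data known, so these shares are a background and not a test. None of the 5 fell by more than 1, as 7.05% of the listed genes did. What set the genes apart from each other was their spread within HM, which was smaller for PTH1R and RUNX3 than for IGFBP3, TGFBR2 and H19, although above the median of the listed genes in all 5.

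**Figure D1:**
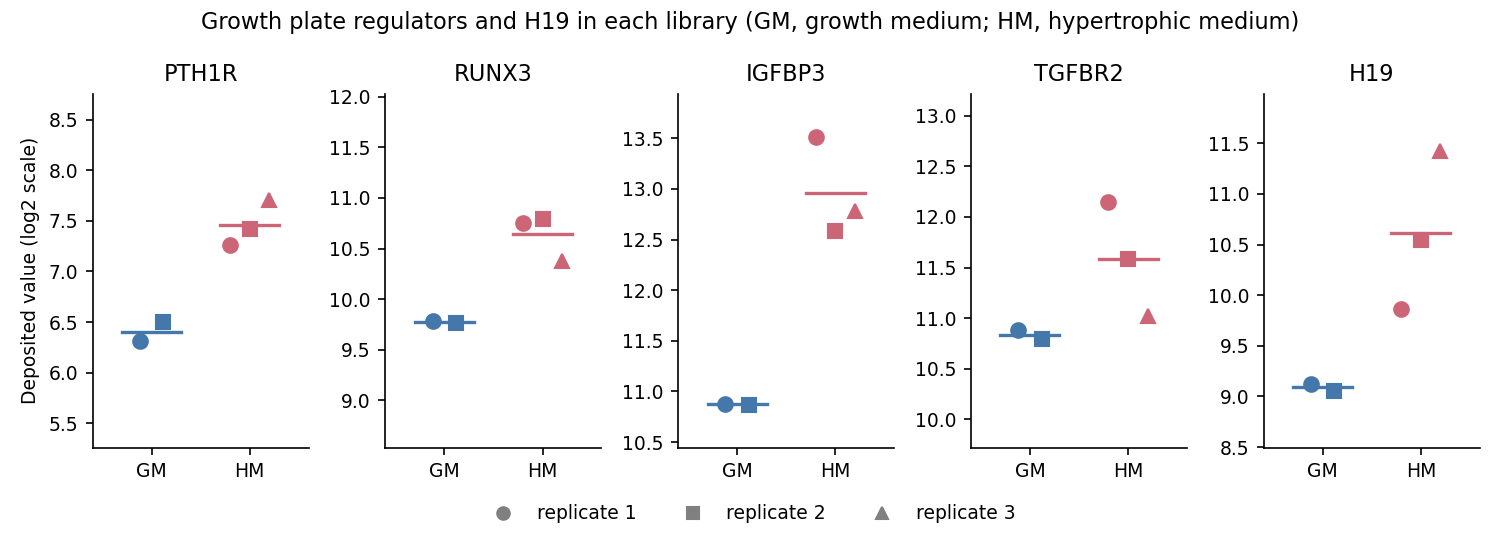
Deposited log2 value (vertical axis, the same span in every panel) of each gene in the 2 growth medium (GM) and 3 hypertrophic medium (HM) libraries. Symbols stand for replicate numbers and lines for group means. The HM libraries lie above the GM libraries in all 5 genes, and the HM values of H19, from 9.86 to 11.43, spread most widely.

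The label of the cells could not be checked with marker genes, because a marker with equal values in both media would not be listed. The marker values show only how the media differed, and chondrocyte markers were taken first. Of 20 such genes, 5 were listed, namely the transcription factor SOX9, the type II collagen gene COL2A1, the proteoglycan gene ACAN and the type IX collagen genes COL9A2 and COL9A3. All 5 rose in HM, by 0.65, 1.53, 1.14, 1.08 and 1.02. The call of SOX9 was lost after median centring (adjusted p = 0.0525, limma) and after quantile normalization (adjusted p = 0.059, limma). The remaining markers were not listed and have no value here, which says nothing of their level. Markers of other cell types also moved with the media. Of 12 fibroblast and smooth muscle markers, 7 were listed. Of these, 5 rose and 2 fell, with a median difference of 0.95 (0.60 after median centring), and those that fell were CNN1, by 1.32, and TAGLN, by 0.81. S100A4, one of those that rose, did not pass after median centring (adjusted p = 0.133, limma). Of 12 osteoblast markers, PHEX and COL1A1 were listed and both rose, although neither passed after median centring (adjusted p of 0.0501 and 0.289, limma). Of 8 adipocyte markers LPL was listed and rose by 0.88, without passing after quantile normalization (adjusted p = 0.0876, limma), and of 10 endothelial and blood markers TEK and CD14 rose and CDH5 fell. The part of these markers in the results below was not tested. Fewer cells of a type and less RNA per cell cannot be told apart in bulk RNA.

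PTH1R encodes the G protein-coupled receptor for PTHLH and parathyroid hormone. In GRCh37 it spans chr3:46919211-46945289 (plus strand), and the GENCODE canonical transcript has 16 exons. The opposite-strand gene MYL3 overlaps its start. The libraries were made with a stranded kit, but whether reads were counted by strand is not given in the sources used here, and such reads then cannot be told apart. PTH1R was 6.31 and 6.50 in GM and 7.26, 7.42 and 7.71 in HM replicates 1, 2 and 3. The groups were separated by 0.76 between the highest GM and the lowest HM library. The log2 difference was 1.06 (95% CI 0.66 to 1.46, adjusted p = 0.00078, limma). The exact two-sided permutation test gave p = 0.1, the smallest that 10 splits of 5 libraries allow. PTH1R was also the gene whose GM libraries were farthest apart among the 5, by 0.19. Without HM replicate 1 the difference was 1.16, and without HM replicate 3 it was 0.93. It was 0.71 (adjusted p = 0.0107, limma) after median centring and 0.90 after quantile normalization. The excess over 1 was therefore not kept without HM replicate 3 or under either other scaling.

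The ligand of this receptor and the hedgehog arm of the loop were followed in a list of 34 genes, of which 19 were listed. Of these, 17 rose and 2 fell, with a median difference of 0.68 against 0.56 over all listed genes. PTHLH itself fell, from 7.17 and 7.50 in GM to 6.73, 6.56 and 6.58 in HM, a log2 difference of -0.71 (95% CI -1.08 to -0.35, adjusted p = 0.00288, limma). Receptor and ligand thus had opposite directions, with no overlap between the media in either gene. IHH and the hedgehog receptor genes PTCH1 and SMO were not listed.

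On the hedgehog side, the largest change was a fall of HHIP, whose product binds and blocks hedgehog ligands, from 9.74 and 9.71 in GM to 7.26, 7.98 and 7.47 in HM, a log2 difference of -2.15 (95% CI -2.63 to -1.68). The transcription factor genes GLI1 and GLI3 rose by 1.21 and 1.26, and the hedgehog co-receptor genes GAS1 and BOC rose by 1.66 and 1.19. GLI1 was 6.39 and 6.24 in GM and 7.55, 7.56 and 7.47 in HM, the narrowest HM range of the GLI genes. SUFU, which restrains the GLI factors, rose by 0.84, opposite in direction to HHIP. The activity of hedgehog signaling itself was not tested. GLI2 rose by 0.68 and the co-receptor gene CDON by 0.58, but their adjusted p rose to 0.0659 and 0.0872 (limma) after median centring. DHH, the gene of another hedgehog ligand, had a difference of 0.28 that turned to -0.07 after median centring.

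Downstream of PTH1R, the receptor raises cyclic AMP through the stimulatory G protein encoded by GNAS, which activates protein kinase A. The catalytic subunit genes PRKACA and PRKACB rose by 1.02 and 0.65, GNAS by 0.62, and PDE4D, whose product degrades cyclic AMP, by 1.03. PRKACA was 10.29 and 10.17 in GM and 11.32, 11.34 and 11.11 in HM, with the groups clearly apart. The salt-inducible kinase genes SIK2 and SIK3, whose products are held in check by protein kinase A, rose by 0.57 and 0.61, and MEF2D, encoding a transcription factor of hypertrophy, by 0.86. After median centring, GNAS, SIK2 and SIK3 no longer passed (adjusted p of 0.0807, 0.0768 and 0.0655, limma), nor did ZNF521, and 10 of the 17 genes that rose kept an adjusted p under 0.05. PRKACB and MEF2D passed after median centring and not after quantile normalization (adjusted p of 0.0834 and 0.0573, limma).

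RUNX3 encodes a Runt domain transcription factor that acts with RUNX2 in chondrocyte maturation. In GRCh37 it spans chr1:25226002-25291612 (minus strand), with 5 exons in the canonical transcript, and the antisense lncRNA gene RUNX3-AS1 lies within it. RUNX3 was 9.78 and 9.77 in GM and 10.75, 10.80 and 10.38 in HM. The GM libraries were nearly equal, and HM replicate 3 was the lowest of the HM libraries, still 0.60 above GM. The log2 difference was 0.87 (95% CI 0.53 to 1.21, adjusted p = 0.000915, limma), and the exact two-sided permutation p was 0.1. It was 1.00 without HM replicate 3 and 0.81 without HM replicate 1. Median centring brought it to 0.52 (adjusted p = 0.00581, limma) and quantile normalization to 0.45.

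RUNX3 has an upstream and a downstream start in RefSeq, and the gene-level value does not separate their transcripts. The window of 250 bases before and 50 bases after the upstream start (GRCh38.p14, chr1:24964961-24965260, minus strand, from RefSeq) is shown because it holds 2 copies of the RUNX motif, the binding sequence of the family to which RUNX3 belongs. Capitals mark the motif, read here as its reverse complement ACCACA.

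RUNX3 upstream start: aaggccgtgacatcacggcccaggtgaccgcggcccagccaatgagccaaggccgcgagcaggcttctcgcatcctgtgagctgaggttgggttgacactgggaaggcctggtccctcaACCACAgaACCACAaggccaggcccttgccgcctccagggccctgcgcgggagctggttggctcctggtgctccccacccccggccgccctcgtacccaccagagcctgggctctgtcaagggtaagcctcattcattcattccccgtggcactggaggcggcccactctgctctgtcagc

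The copies begin at positions -131 and -123 from the start. The motif, searched as TGTGGT on both strands, was present in 13.1% of the 35116 RefSeq promoter windows of this length, and the downstream RUNX3 window did not contain these letters. A match is a description of the letters and not a bound site.

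Of 23 genes encoding RUNX factors and their partners, 5 were listed, and RUNX3 was the sole RUNX factor among them. RUNX1, RUNX2 and the common partner CBFB were not listed. The co-repressor genes TLE2 and TLE3 rose by 1.45 and 0.74, and WWTR1, which encodes a coactivator of RUNX factors, rose by 0.77. TLE2 was 8.51 and 8.56 in GM and 10.31, 9.89 and 9.76 in HM, a larger difference than that of RUNX3. SMURF2, encoding a ubiquitin ligase that acts on RUNX and SMAD proteins, fell by 0.83, from 13.12 and 13.09 to 12.33, 12.19 and 12.30. All 5 passed the test also after median centring.

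IGFBP3 encodes the main IGF carrier protein of blood plasma, which binds IGFs outside the cell and has actions of its own. In GRCh37 it spans chr7:45951844-45961473 (minus strand), with 5 exons. IGFBP3 was 10.88 and 10.87 in GM and 13.52, 12.59 and 12.78 in HM. The lowest HM library was 1.71 above the higher GM library, the widest gap of the 5 genes. The log2 difference was 2.09 (95% CI 1.56 to 2.62, adjusted p = 0.000128, limma), rank 22 among the increases of the listed genes, and the exact two-sided permutation p was 0.1. HM replicate 1 stood above the other HM libraries, and without it the difference was 1.81 (adjusted p = 6.58e-06, limma). After median centring it was 1.74, and after quantile normalization 1.86. The excess over 2 was therefore not kept without HM replicate 1 or under either other scaling.

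The IGFBP3 window (GRCh38.p14, chr7:45921223-45921522, minus strand, from RefSeq) is shown because IGFBP3 had the largest increase. It held none of the 7 motifs searched, which says only that these letters are not in this window. It has 36 CpG dinucleotides and a GC content of 74.7%, against medians of 14 and 58.7% over all windows.

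IGFBP3 start: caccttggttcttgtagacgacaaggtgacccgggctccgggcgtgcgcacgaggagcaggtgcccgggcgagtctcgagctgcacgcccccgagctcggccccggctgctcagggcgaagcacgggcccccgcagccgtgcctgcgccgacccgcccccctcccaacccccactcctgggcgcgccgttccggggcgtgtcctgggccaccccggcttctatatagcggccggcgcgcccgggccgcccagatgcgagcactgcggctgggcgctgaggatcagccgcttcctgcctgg

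Of 29 genes of the IGF axis, 8 were listed, of which 6 rose and 2 fell, with a median difference of 1.14. All 8 passed also after median centring, when the median was 0.79. The carrier genes IGFBP4 and IGFBP7 rose with IGFBP3, by 1.36 and 1.42, and IGFBP1, IGFBP2, IGFBP5 and IGFBP6 were not listed. IGFBP7 was 12.36 and 12.42 in GM and 13.94, 13.85 and 13.65 in HM, with less spread than IGFBP3. HTRA1, a secreted protease that can cleave IGF-binding proteins, was 10.97 and 10.98 in GM and 13.27, 12.84 and 13.05 in HM, a log2 difference of 2.08 (adjusted p = 1.02e-05, limma).

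The genes that fell belong to another protease system that acts on IGF-binding proteins. PAPPA2, a metalloprotease that cleaves IGFBP3 and IGFBP5, was 7.07 and 6.66 in GM and 5.19, 5.14 and 5.17 in HM, a difference of -1.70 (adjusted p = 4.61e-05, limma). STC2, a secreted inhibitor of this protease family, was 14.41 and 14.40 in GM and 12.59, 12.06 and 11.94 in HM, a difference of -2.21 (adjusted p = 2.85e-05, limma). A protease gene and the gene of its inhibitor were thus lower in the same libraries in which the carrier was higher. LRP1, encoding an endocytic receptor for IGFBP3, rose by 0.92, and THRA, a receptor for the T3 of the medium, rose by 0.69. THRA did not pass after quantile normalization (adjusted p = 0.0565, limma). IGF1, IGF2, IGF1R and IGF2R were not listed.

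TGFBR2 encodes the type II receptor that binds TGF-β and activates the type I receptor. In GRCh37 it spans chr3:30648093-30735634 (plus strand), with 7 exons, and an opposite-strand processed pseudogene, KLHL25P1, lies within it. TGFBR2 was 10.88 and 10.79 in GM and 12.14, 11.59 and 11.02 in HM replicates 1, 2 and 3. The groups did not overlap, but HM replicate 3 was just 0.14 above the higher GM library, closer to GM than to either other HM library. The log2 difference was 0.75 (95% CI 0.15 to 1.34, adjusted p = 0.021, limma), and the HM range was 151% of it. The exact two-sided permutation p was 0.2, since another of the 10 splits gave at least as large a difference.

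TGFBR2 was the gene whose call depended on the processing. The difference was 0.40 (adjusted p = 0.135, limma) after median centring, when HM replicate 3 fell to 10.97, below the higher GM value of 11.10, and 0.39 (adjusted p = 0.184, limma) after quantile normalization. Without HM replicate 1 it was 0.47 (adjusted p = 0.0279, limma), and without HM replicate 3 it was 1.03 (adjusted p = 0.00212, limma). It did not pass without HM replicate 2, at 0.74 (adjusted p = 0.0709, limma), or without GM replicate 2, at 0.70 (adjusted p = 0.0547, limma).

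**Figure D2:**
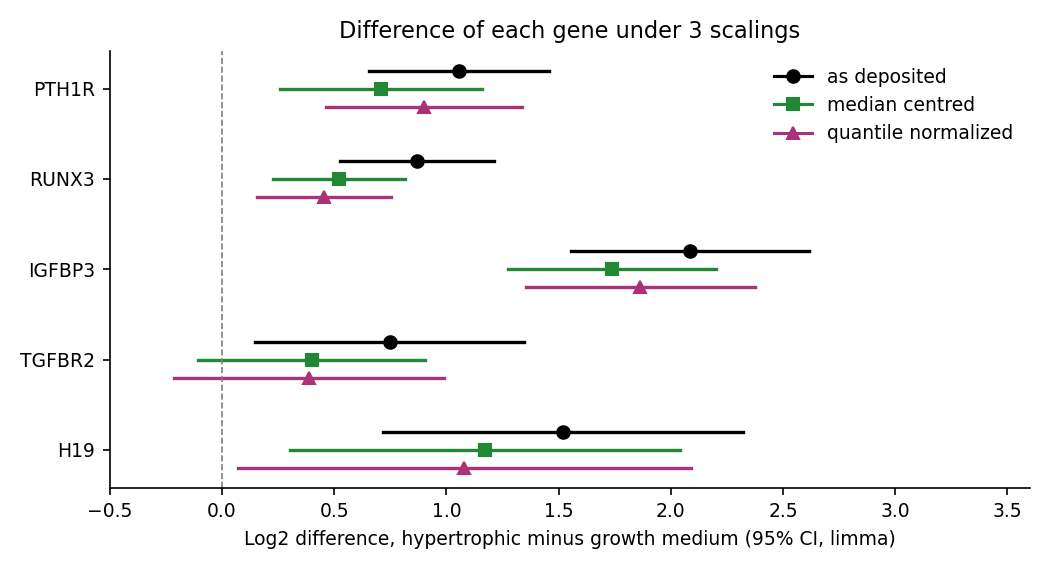
Log2 difference between hypertrophic and growth medium (horizontal axis) of each gene with its 95% confidence interval from limma, for the values as deposited, after median centring and after quantile normalization. The intervals of PTH1R, RUNX3, IGFBP3 and H19 lie above 0 under all 3 scalings, while that of TGFBR2 crosses 0 after median centring and after quantile normalization.

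Of 36 genes of the TGF-β pathway, 12 were listed, of which 9 rose and 3 fell, with a median difference of 0.84. Among the ligands the directions differed. TGFB3 rose by 1.18 and TGFB1 by 0.87, whereas TGFB2 fell from 14.39 and 14.32 in GM to 13.58, 13.58 and 13.42 in HM, a difference of -0.83. Among the receptors, TGFBR3, the co-receptor betaglycan, was 7.76 and 7.79 in GM and 9.26, 8.88 and 9.06 in HM, a difference of 1.29 (adjusted p = 0.000187, limma). TGFBR3 had a smaller HM SD (0.19) than TGFBR2 (0.56). The co-receptor gene ENG had a difference of 0.58 (adjusted p = 0.033, limma), with overlapping media, and did not pass after median centring (adjusted p = 0.308, limma). TGFBR1 was not listed.

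The latent TGF-β binding protein genes LTBP2 and LTBP4 rose by 1.09 and 1.04, the matrix proteoglycan gene BGN by 2.10, and SKI, a repressor of SMAD-dependent transcription, by 0.82. THBS1, whose product can activate latent TGF-β, was 19.44 and 19.20 in GM and 17.07, 17.23 and 16.80 in HM, a difference of -2.29. After median centring, 7 of the 9 genes that rose passed, with TGFBR2 and ENG the exceptions, and all 3 that fell did so.

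H19 is an imprinted lncRNA, expressed from the maternal chromosome, and lies beside IGF2, which is expressed from the paternal one. It is abundant in fetal tissues and is the host of a microRNA. In GRCh37 it spans chr11:2016396-2025782 (minus strand). H19 was 9.13 and 9.06 in GM and 9.86, 10.54 and 11.43 in HM replicates 1, 2 and 3. All HM libraries lay above GM, by 0.74 for the lowest of them, but they were spread over 1.56, which is 103% of the difference between the media. The log2 difference was 1.52 (95% CI 0.72 to 2.32, adjusted p = 0.00321, limma). The exact two-sided permutation p was 0.2, since another of the 10 splits gave at least as large a difference.

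The size of the H19 increase depended on the library. It was 0.77 above the GM mean in HM replicate 1, 1.45 in replicate 2 and 2.33 in replicate 3. Without HM replicate 1 the difference was 1.89 (adjusted p = 0.000212, limma), and without HM replicate 3 it was 1.11 (adjusted p = 0.00333, limma). It was 1.17 (adjusted p = 0.0227, limma) after median centring and 1.08 (adjusted p = 0.0474, limma) after quantile normalization. When genes of outlying spread were moderated less (robust limma), the adjusted p was 0.0209.

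The H19 window (GRCh38.p14, chr11:2001217-2001516, minus strand, from RefSeq) and the mature sequences of its microRNA, miR-675, are shown because the deposited value covers the host transcript. Capitals in the window mark the SMAD motif CAGAC, which 45.3% of all windows hold, at position -219, and TGTTCT, the reverse complement of the glucocorticoid receptor hexamer AGAACA, which 14.8% hold, at position -117. The capitals in the microRNAs mark the seed, bases 2 to 8.

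H19 start: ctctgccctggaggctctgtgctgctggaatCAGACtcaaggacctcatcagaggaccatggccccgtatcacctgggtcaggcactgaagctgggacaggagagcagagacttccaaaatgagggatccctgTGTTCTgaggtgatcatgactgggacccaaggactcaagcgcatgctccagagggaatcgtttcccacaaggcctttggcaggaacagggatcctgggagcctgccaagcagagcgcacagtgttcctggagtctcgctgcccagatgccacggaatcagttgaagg

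hsa-miR-675-5p: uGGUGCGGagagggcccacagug

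hsa-miR-675-3p: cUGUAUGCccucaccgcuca

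The microRNA lies within H19 in the RefSeq annotation and was not among the listed genes. The 5 genes had 8 windows in RefSeq, which were searched on both strands for the RUNX motif, CAGAC, the BMP-responsive SMAD motif GGCGCC, the GLI core CCACCCA, the glucocorticoid receptor hexamer, the nuclear receptor hexamer AGGTCA and the TATA box TATAAA. Within these windows, AGAACA occurred once in the downstream RUNX3 window, the upstream TGFBR2 window and the H19 window, and CAGAC in both PTH1R windows and in H19. GGCGCC, which 19.2% of all windows hold, occurred in the downstream windows of PTH1R and RUNX3. The GLI core, the nuclear receptor hexamer and the TATA box, held by 9.19%, 13.8% and 11.5% of all windows, were in none of the 8.

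Of 42 genes of the H19 domain and other imprinted genes, 5 were listed and all rose, with a median of 1.19. IGF2, the reciprocally imprinted neighbor, was not listed, nor were CDKN1C, DLK1, MEG3 and KCNQ1OT1. PEG10, a paternally expressed gene derived from a retrotransposon, was 11.09 and 11.13 in GM and 12.34, 12.11 and 12.44 in HM, a difference of 1.19 with little spread. LSP1, which lies 102899 bases from H19 and encodes an actin-binding protein, was 6.53 and 6.57 in GM and 7.65, 8.27 and 8.23 in HM, a difference of 1.50. LSP1 was, like H19, lowest among the HM libraries in replicate 1, but it was highest in replicate 2 and H19 in replicate 3. The order of LSP1 was that of 372 listed genes (13.8%), and the order of H19 that of 295 (10.95%). Of the other genes of this list, SLC22A18 and GNAS were highest in HM replicate 1, and PEG10 was lowest in HM replicate 2. SLC22A18 and GNAS rose by 0.60 and 0.62 and did not pass after median centring (adjusted p of 0.122 and 0.0807, limma).

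**Figure D3:**
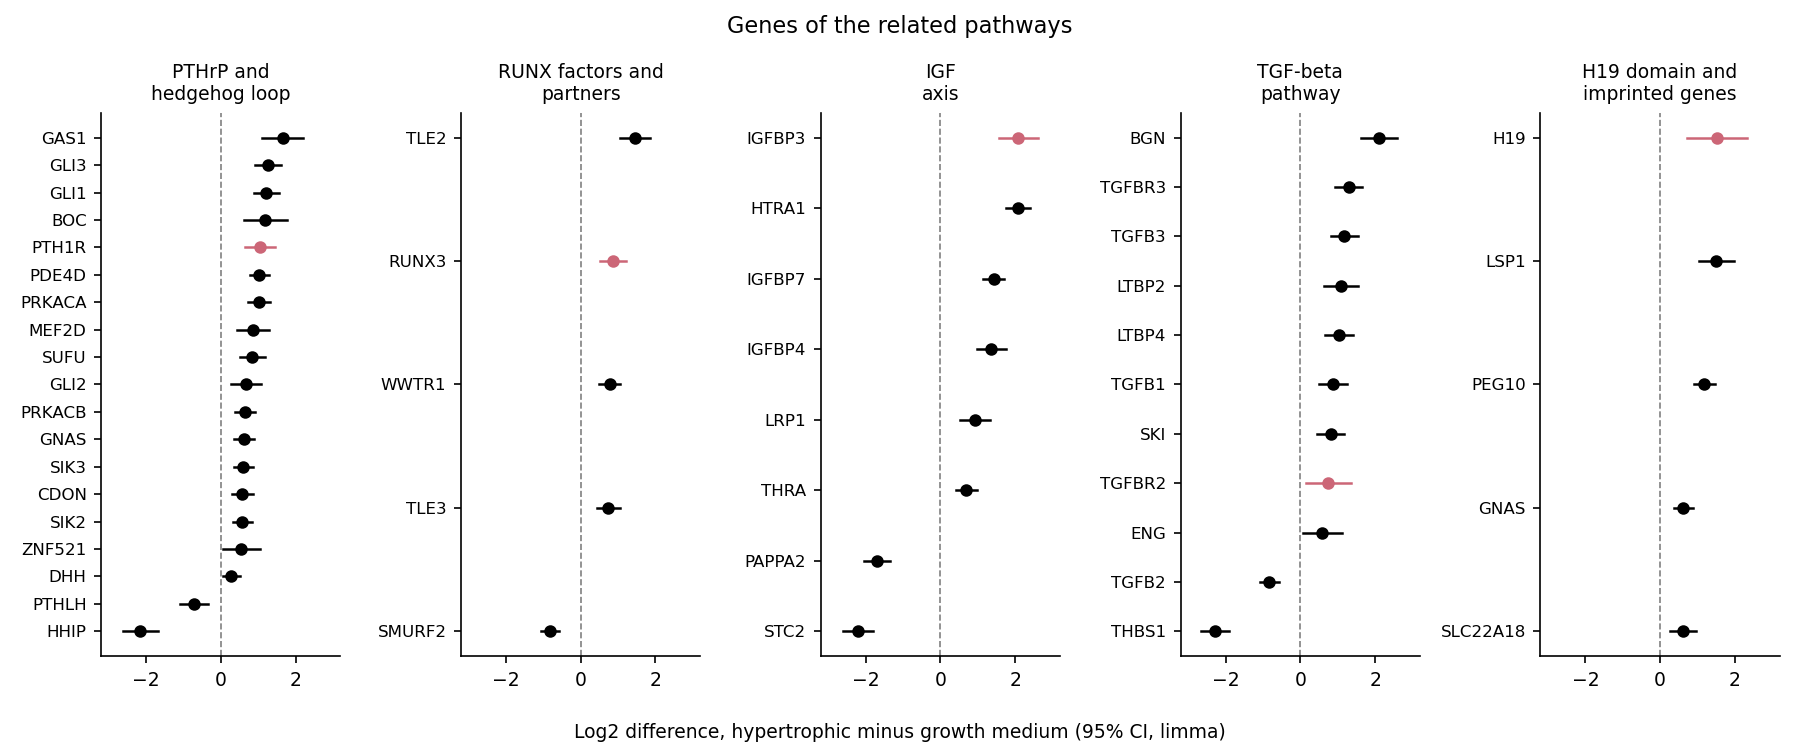
Log2 difference between hypertrophic and growth medium (horizontal axis) with its 95% confidence interval from limma, for listed genes of 5 lists around PTH1R, RUNX3, IGFBP3, TGFBR2 and H19, which are drawn in red. Most genes drawn lie above 0, and HHIP, PTHLH, SMURF2, STC2, PAPPA2, TGFB2 and THBS1 lie below it.

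Among 26 growth plate and hypertrophy genes, 10 were listed, of which 7 rose and 3 fell, with a median of 0.72. The matrix-degrading enzyme genes ADAMTS5 and MMP13 rose by 1.79 and 0.70, the pyrophosphate transporter gene ANKH by 1.09 and the receptor gene FGFR3 by 0.74. VEGFA, which attracts vessels into hypertrophic cartilage, fell by 0.78, WNT5B by 1.47 and SNAI2 by 0.58. RUNX2, IHH, COL10A1, SPP1, IBSP and ALPL were not listed, and have no value here. MMP13, ADAMTS4 and PHEX did not pass after median centring (adjusted p of 0.116, 0.162 and 0.0501, limma). Over the 6 lists described, 58 of 183 genes were listed and all 58 passed the test in one direction or the other, as nearly every listed gene did (62.5% higher and 36.5% lower). Without HM replicates 1, 2 and 3 in turn, 55, 54 and 58 passed, and 45 did so after median centring.

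The spread within HM was compared over all listed genes, as a description. The median SD of the 3 HM libraries was 0.16. The SD of H19 was 0.78, and 17 of the 2694 genes had a larger one. That of TGFBR2 was 0.56, with 45 genes above it, and that of IGFBP3 was 0.49, with 86 above it. PTH1R and RUNX3, both at 0.23, were exceeded by 742 and 726 genes. The spread in GM did not follow this order, since the GM libraries differed by 0.07 in H19, 0.09 in TGFBR2 and 0.01 in IGFBP3, against a median of 0.09. Only for TGFBR2 and H19 among the 5 did the HM range exceed the difference between the media, as it did in 185 listed genes (6.87%).

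**Figure D4:**
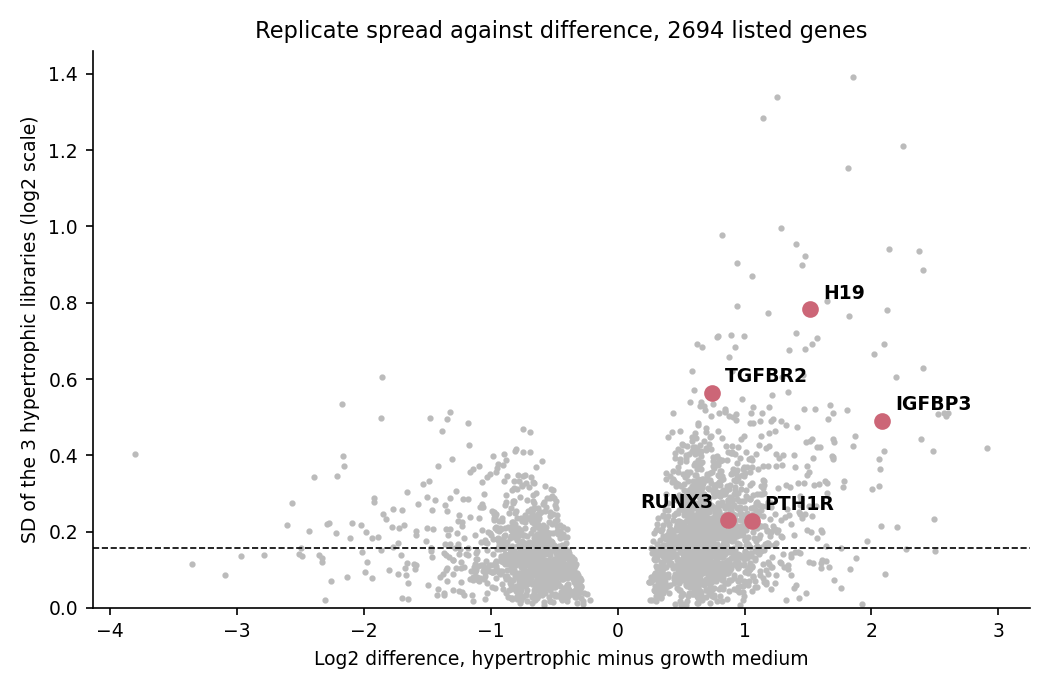
SD of the 3 hypertrophic medium libraries (vertical axis, log2 scale) against the log2 difference between hypertrophic and growth medium (horizontal axis) for the 2694 listed genes in grey, with the 5 genes in red. The dashed line is the median SD, 0.16, and H19, TGFBR2 and IGFBP3 lie well above it at 0.78, 0.56 and 0.49.

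The HM libraries did not take the same order in these genes. H19 and PTH1R were lowest in HM replicate 1 and highest in replicate 3, an order that 295 of the listed genes shared. TGFBR2 had the opposite order, with replicate 1 highest and replicate 3 lowest, as in 739 genes. IGFBP3 was highest in replicate 1 and lowest in replicate 2, and RUNX3 highest in replicate 2 and lowest in replicate 3. HM replicate 1 differed from the mean of replicates 2 and 3 by -1.12 in H19, by 0.84 in TGFBR2 and by 0.83 in IGFBP3, while the median over all listed genes was 0.07. The order of H19 and of TGFBR2 was kept after median centring, with 9.63, 10.41 and 11.38 for H19 and 11.91, 11.46 and 10.97 for TGFBR2.

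For each gene, the 3 listed genes with the most similar pattern were found by Euclidean distance over the 5 libraries, after the GM mean of each gene was subtracted. PTH1R was nearest to the collagen gene COL3A1 (0.18), SHISAL1 (0.20) and the glypican gene GPC6 (0.23). RUNX3 was nearest to SCAMP4 (0.07), HIPK2 (0.07) and ABCC6 (0.08), and TGFBR2 to the calcium channel gene CACNA1C (0.16), TOX2 (0.23) and the oncostatin M receptor gene OSMR (0.24). IGFBP3 was nearest to the prostaglandin F receptor gene PTGFR (0.29), NCALD (0.30) and IFITM1 (0.41). H19 had the most distant neighbors, namely SLIT3 (0.46), PDE3A (0.49) and NES (0.50). Among the 5 genes themselves, RUNX3 and TGFBR2 were the nearest pair, at 0.60, and IGFBP3 and TGFBR2 the farthest, at 2.38.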

How the data were processed

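TC28a2 total RNA was sequenced from 2 growth medium (n = 2) and 3 hypertrophic medium (n = 3) libraries. According to the methods of the study, the authors trimmed the reads, aligned them to hg19 with HISAT2, counted reads on NCBI genes with StringTie, excluded genes with a zero count, and deposited log2-transformed, RLE-normalized values, 1 per gene and library. The submitters' processing notes instead name cutadapt 1.18, TopHat2 2.0.13, Cuffdiff 2.2.1 and the rat build rn5. The gene symbols in the files are human, and which processing made the values was not settled.

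The media were set against each other in R 4.3.3 with limma 3.58.1 (lmFit, eBayes with a mean-variance trend, no block) on the values as deposited, with Benjamini-Hochberg adjustment over 2694 genes and calls at an adjusted p under 0.05. A 2-sided exact permutation test used 10 splits. The fit was tested on simulated data. The genes and lists were chosen with earlier results of these data known. By rule, the genes named were the 5 genes, the listed genes of the lists, and for each of the 5 the 3 genes nearest in pattern. Other genes, named among the closing observations for a wide spread or a nearby position, were chosen after their values were seen. Some genes of the lists are counted but not reported here by name. Coordinates are from GENCODE 44 as lifted to GRCh37 by its makers, and sequences from RefSeq on GRCh38.p14, which covered all 5 genes. Alternatives were median centring, quantile normalization, a replicate block, eBayes without a trend, robust eBayes, array weights, leaving out the genes of lowest mean value and each library left out. Depth is unknown, and the number of libraries limits the precision. Python 3.11.15 and matplotlib 3.10.9 were used for the rest.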

Additional observations from a re-analysis of the deposited data

How the results depend on the processing

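PTH1R, RUNX3, IGFBP3 and H19 kept their direction and an adjusted p under 0.05 (limma) in all 12 alternatives, with differences of 0.71 to 1.16, 0.45 to 1.00, 1.74 to 2.27 and 1.08 to 1.89. TGFBR2 kept its direction in 12 and its call in 8. It was 0.40 with median centring and 0.39 with quantile normalization, and ran from 0.47 to 1.03 with 1 library left out. Where a GM library was left out, the lone one was assumed to vary like the HM libraries. With the replicate number as a block, all 5 genes passed, TGFBR2 at 1.03 and H19 at 1.11, and 1685 genes were higher and 980 lower. HM replicate 3 has no partner, so the block takes it out of the comparison and gives each of the 5 genes the difference found without that library. Both fits count among the 12 alternatives, and both among the 8 in which TGFBR2 kept its call. The block leaves few libraries to measure the spread of a gene, so its p-values rest mostly on the spread moderated across genes. Replicate 1 minus replicate 2, taken in each medium, correlated at -0.0253 over genes. This value rests on single libraries and cannot tell whether libraries of the same number shared a culture or batch. The 1683 genes higher in HM became 845 with median centring, and the 984 lower became 653 when the genes of lowest mean value were left out, where fewer genes were tested. With median centring, the median differences became 0.33 for the PTHrP and hedgehog list, 0.43 for RUNX factors and partners, 0.79 for the IGF axis, 0.50 for the TGF-β pathway, 0.84 for the H19 domain and imprinted genes, 0.37 for growth plate genes, 0.74 for chondrocyte markers, 0.37 for osteoblast markers, 0.60 for fibroblast and smooth muscle markers and 0.90 for endothelial and blood markers, a shift that follows from the 0.35 by which centring lowers each difference. The HM SD of the 5 genes after centring ran from 0.17 for RUNX3 to 0.88 for H19.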

Other observations

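H19 was highest in HM replicate 3, as were 569 of the 2694 listed genes. Of the 17 listed genes with a larger SD in HM than H19, 15 were highest in HM replicate 1, among them SUCNR1, CHI3L1, SLC1A3 and PTPRO, and over all listed genes 1161 of 2694 were. SUCNR1, a receptor for succinate, was 6.77 and 6.45 in GM and 10.06, 7.73 and 7.59 in HM, and CHI3L1, a secreted glycoprotein of cartilage, was 5.99 and 6.20 in GM and 8.90, 6.56 and 6.60 in HM. The exceptions were CLSTN2 and MGP, both highest in HM replicate 3 like H19. MGP, which encodes the mineralization inhibitor matrix Gla protein, was 7.20 and 7.21 in GM and 9.82, 8.64 and 10.38 in HM. CLSTN2 was 8.45 and 8.49 in GM and 8.90, 10.27 and 10.66 in HM. These genes were chosen after their values were seen, and no test was made.

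Within 500 kb on either side of H19 in GRCh37, 4 listed genes were found, again looked up after the values were seen. LSP1, CTSD and C11orf21 were higher in HM by 1.50, 0.60 and 0.49, and DUSP8 was lower, at -0.82. Around PTH1R there were also 4, of which TMIE and PTPN23 were higher by 0.30 and 0.66 and ALS2CL and LRRC2 lower, at -0.69 and -0.73. The 0.30 of TMIE is smaller than the 0.35 by which median centring lowers each difference, so its direction turns with that scaling. For RUNX3, IGFBP3 and TGFBR2 the search found 0.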
